A study of Mus musculus with 16 samples.

Results

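Nop58 carries 4 small nucleolar RNAs (snoRNAs) in its introns: Snord70, Gm26293, Gm26287 and Snord11. They are all the counted intervals of gene type snoRNA that lie inside Nop58 on the same strand in GENCODE release M21, and they make up 4 of the 406 snoRNA intervals and of the 1885 intervals of every class in the data. Position alone decided which intervals belong to the set, but the set itself was chosen with earlier results of these data known. All 4 had reads in each of the 16 libraries and passed the low-count filter.

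Small RNA was sequenced from 8 cell populations sorted by flow cytometry from the bone marrow of wild-type (WT) mice, with 2 libraries per population. The progenitor populations are labelled CLP, CMP, GMP and MEP, the usual abbreviations of the common lymphoid, common myeloid, granulocyte-monocyte and megakaryocyte-erythroid progenitors, and the mature populations are B, T, Myeloid (written "Myloid" in one label) and Erythroid. No treatment or engineered allele is named in any population, and strain, age, sex and the number of mice are not given in the sources used here. The labels list the antibodies for the whole sort and not the gate of each population, and they do not tie the paired libraries to separate animals. The p values below therefore speak only of library-to-library spread, part or all of which may be technical.

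Box C/D snoRNAs pair with ribosomal RNA through a guide stretch next to a conserved box D and direct 2′-O-methylation of the paired base. They are cut out of the introns of host genes, and they work in a particle built on the proteins NOP58, NOP56, fibrillarin and SNU13, so Nop58 encodes both a core protein of the particle and RNAs that are packed into it. Snord70 and Snord11 are known guides of methylation in the RNA of the small ribosomal subunit. The libraries hold small RNAs, and the Nop58 messenger RNA was not measured.

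The sequences of the 4 snoRNAs are shown because they share 1 stretch near box D and because their similarity bears on how reads could be assigned. They are printed 5′ to 3′ on the plus strand from the GENCODE M21 transcripts (GRCm38). The capitals mark, in order, the core of box C (TGATG), the stretch common to all 4 (GTCACTACC) and box D (CTGA).
Snord70: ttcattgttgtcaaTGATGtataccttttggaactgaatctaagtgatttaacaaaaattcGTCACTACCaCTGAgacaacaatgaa
Gm26293: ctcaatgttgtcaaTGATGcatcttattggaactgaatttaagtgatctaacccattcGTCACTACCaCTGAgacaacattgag
Gm26287: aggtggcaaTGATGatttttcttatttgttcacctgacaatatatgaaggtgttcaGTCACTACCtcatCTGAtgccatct
Snord11: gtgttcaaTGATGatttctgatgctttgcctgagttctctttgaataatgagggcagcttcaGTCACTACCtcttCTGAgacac

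The 9-base stretch GTCACTACC was taken as the longest common to these 4 sequences, so its absence from others is not a test. Searched on the transcript strand, it was present in these 4 and in no other of the 406 snoRNA intervals, a share of 0.985%. It ends 1 base before box D in Snord70 and Gm26293 and 4 bases before box D in Gm26287 and Snord11. In box C/D guides the base of the target that pairs with the fifth base upstream of box D is the one methylated, and the fifth base is base 6 of the stretch in the first pair and base 9 in the second, 3 bases apart. The target RNA itself was not used here, so no pairing was scored.

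The 4 sequences fell into 2 similar pairs. Snord70 and Gm26293 were identical at 74 of 88 aligned columns (84.1%), with a longest common run of 25 bases, and Gm26287 and Snord11 at 63 of 94 (67.0%), with a longest run of 15 bases. Identity across the pairs was 55.5% to 57.1%. How the authors' counting treated reads that fit more than 1 interval is not given in the sources used here, so the split between Snord70 and Gm26293 is less certain than their sum, and both are reported below.

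Nop58 (ENSMUSG00000026020) spans chr1:59684971-59719044 on the plus strand of GRCm38, and the protein-coding transcript used here to number its introns has 13 exons. Snord70 (ENSMUSG00000077345, 87 bases) lies in intron 2 at chr1:59691934-59692020, and Gm26293 (ENSMUSG00000077358, 84 bases) lies 488 bp downstream in intron 3 at chr1:59692509-59692592. Gm26287 (ENSMUSG00000089512, 81 bases) lies in intron 8 at chr1:59704258-59704338, and Snord11 (ENSMUSG00000089093, 84 bases) lies 451 bp downstream in intron 9 at chr1:59704790-59704873. The similar sequences are therefore also neighbours, and 11665 bp separate Gm26293 from Gm26287. Gm26293 also overlaps exons of 4 other annotated Nop58 transcripts, annotated as retained intron, nonsense-mediated decay or processed transcript, whereas the other 3 snoRNAs overlap no exon. Snord70 sits 316 bp before the next exon, Gm26287 285 bp, Snord11 719 bp and Gm26293 3385 bp.

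**Figure D1:**
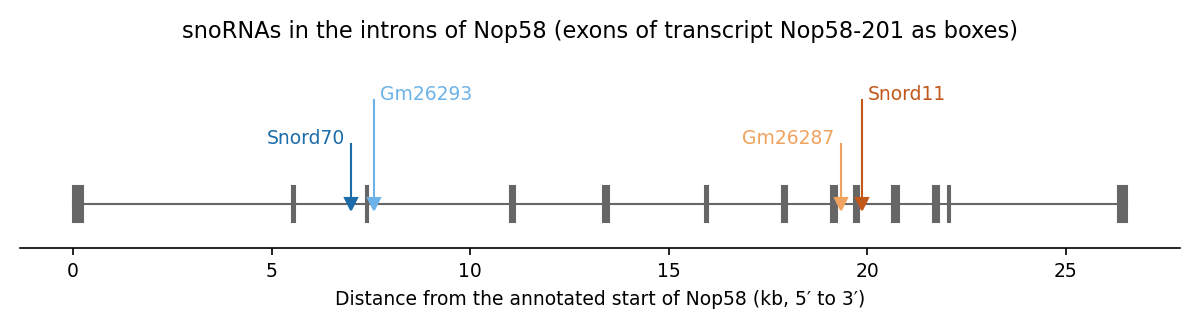
Positions of the 4 snoRNAs along Nop58, in kb from the annotated start of the gene; boxes are the exons of the transcript that numbers the introns, drawn to scale, and arrows mark the snoRNAs. Snord70 and Gm26293 sit in introns 2 and 3, and Gm26287 and Snord11 in introns 8 and 9.

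Total counts ranged from 8197458 to 41799906 per library, and 749 intervals passed the filter. In GMP, MEP and Erythroid the 2 libraries stood further apart than elsewhere. Their log2 ratio was taken over the 320 intervals with a mean of at least 10 CPM (counts per 1000000 counts of the library). Its standard deviation (SD) was 0.560, 0.650 and 0.617 in these populations and 0.122 to 0.206 in the other 5. The scaled median absolute deviation, which extreme intervals affect less, differed less: 0.293, 0.174 and 0.205 against 0.0676 to 0.133. Of the Nop58-hosted snoRNAs, Snord70 differed between libraries by 0.026, 0.014 and 0.021 on the log2 scale in GMP, MEP and Erythroid. The other 3 differed by up to 0.25 there: Snord11 had its largest gap in GMP (0.25, library 2 higher) and Gm26293 its largest in Erythroid (0.18) and GMP (0.17), and Gm26287 differed by 0.25 in Erythroid. Over all 4 snoRNAs and 8 populations the largest differences were those of Gm26287 in B (0.57) and of Snord70 in T (0.26, library 2 higher). Marker miRNAs of each list were all listed with reads in every population. The summed myeloid markers Mir223 and Mir139 were highest in Myeloid (1422 to 1493 CPM), and the 5 lymphocyte markers were highest in T, but in B they lay at 173 to 182 CPM, below the 211 to 222 CPM of Myeloid. The 4 stem and progenitor markers were highest in CMP (42.7 to 44.8 CPM), but in CLP (11.1 to 14.9), GMP (8.33 to 22.7) and MEP (7.50 to 21.1) their sums overlapped those of mature T (13.5 to 14.5) and Erythroid (4.89 to 16.5), and those of GMP and MEP also overlapped those of Myeloid (up to 19.3). These markers thus did not set 3 of the 4 populations labelled as progenitors apart from the mature ones. All miRNAs together were 1.23% to 3.94% of the counts of a library. That share differed between libraries 1 and 2 of GMP (1.40% and 2.33%), MEP (2.17% and 1.33%) and Erythroid (1.41% and 2.62%). The overlap of marker sums therefore cannot decide which cells a library holds. In sorted bulk RNA, fewer cells of a type and less RNA per cell cannot be told apart, and CPM values are relative to the other small RNAs of a library.

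Per kilobase of interval, Snord70 was the most abundant of the 4, with a mean over the populations of 2908 CPM per kb. Gm26293 followed at 1365, Snord11 at 1008 and Gm26287 at 244 CPM per kb. Among the 303 snoRNAs tested these levels ranked 100, 109, 116 and 157, so the Nop58-hosted snoRNAs are of intermediate abundance. Raw counts per library were 1558 to 15712 for Snord70, 906 to 5814 for Gm26293, 566 to 3824 for Snord11 and 104 to 1274 for Gm26287. The 4 RNAs of 1 host gene thus spanned a wide range of levels, and Gm26287 is the one whose values rest on the fewest reads.

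All 4 snoRNAs varied among the 8 populations beyond the spread between libraries (edgeR quasi-likelihood test, Benjamini-Hochberg adjusted p = 1.18e-07 for Snord70, 0.00184 for Gm26293, 3.85e-05 for Gm26287 and 3.78e-05 for Snord11). Of all tested intervals, 61.1% did so (287 of 322 in the fit at a minimum mean of 10 CPM), so this count of 4 of 4 is common in these data. The size of the variation differed: the highest population mean was 3.51 times the lowest for Snord70, 3.17 times for Gm26287, 2.22 times for Snord11 and 1.52 times for Gm26293. Over the 28 pairs of populations, 23 differed for Snord70, 18 for Gm26287, 16 for Snord11 and 12 for Gm26293. In all, 69 of the 112 tests passed, against 27.5% of the tests over all intervals. That share includes scarcer intervals, and it is not given here at a minimum mean of 10 CPM.

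Snord70 was highest in MEP. Levels here are CPM over effective library sizes from edgeR's TMM method (trimmed mean of M values), given for library 1 and then library 2. The level of Snord70 was 479 and 474 CPM in MEP, 340 and 341 CPM in CLP, 285 and 280 CPM in GMP, and 162 and 159 CPM in CMP. In the mature populations it was 280 and 276 in Erythroid, 164 and 197 in T, 173 and 168 in Myeloid and 137 and 135 in B. The libraries of MEP lay above all others and those of B below all others, and CMP lay among the mature populations rather than with the other progenitors. Against the mean of the other 7 populations, Snord70 was higher in MEP (log2 difference 1.18, adjusted p = 1.30e-07), CLP (0.63, 3.77e-05), GMP (0.32, 0.00238) and Erythroid (0.30, 0.00649), and lower in B (-0.89, 2.90e-06), CMP (-0.61, 2.29e-05), Myeloid (-0.51, 0.000241) and T (-0.42, 0.000227), all by edgeR. Together the 4 snoRNAs passed 21 of their 32 tests of this kind, of which 29.5% passed over all intervals. That share, and those by population that follow, include scarcer intervals and are not given at a minimum mean of 10 CPM. By population, the share of all intervals that passed in either direction was 28.4% for MEP, 23.8% for CLP, 26.0% for GMP, 16.6% for Erythroid, 31.4% for B, 32.0% for CMP, 30.0% for Myeloid and 47.8% for T. Along the order of its levels (MEP, CLP, GMP, Erythroid, T, Myeloid, CMP, B), neighbours differed between MEP and CLP, between Erythroid and T and between CMP and B. The other 4 steps did not pass the test.

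Gm26293, the closest copy of Snord70 in sequence, was the flattest of the 4. Its levels were 142 and 126 CPM in GMP, 125 and 126 in MEP, 130 and 126 in CLP, and 108 and 110 in CMP. In the mature populations they were 128 and 119 CPM in B, 118 and 112 in Myeloid, 87.7 and 98.4 in T and 93.9 and 83.1 in Erythroid. The libraries of T and Erythroid lay below all others, and those of the other 6 populations ran from 108 to 142 CPM with much overlap. Only GMP was higher than the other 7 (0.28, edgeR adjusted p = 0.0160), and only Erythroid (-0.41, 0.00403) and T (-0.33, 0.00427) were lower. No neighbours in the order of its levels differed.

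Gm26287, the scarcest, was highest in GMP. Its libraries held 36.1 and 34.1 CPM in GMP, 29.7 and 27.7 in CLP, 21.7 and 24.4 in MEP and 10.8 and 11.3 in CMP. In the mature populations they held 17.8 and 19.1 CPM in Myeloid, 19.3 and 16.2 in Erythroid, 13.4 and 12.4 in T and 13.2 and 8.91 in B. GMP lay above all other libraries, and CMP, B and T formed the low end with overlapping libraries. The lowest library, B library 2, rests on 114 reads, and the 95% Poisson interval of its level is 6.75 to 11.5 CPM, computed on read pairs and covering counting error only. Gm26287 was higher than the other 7 in GMP (1.08, edgeR adjusted p = 6.61e-05), CLP (0.75, 0.00120) and MEP (0.39, 0.0436) and lower in CMP (-0.82, 0.00110), B (-0.82, 0.00130) and T (-0.57, 0.00609). No neighbours in its order differed.

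Snord11, which shares intron neighbourhood and sequence with Gm26287, was instead highest in T and MEP. Its levels were 117 and 130 CPM in MEP, 89.0 and 83.0 CPM in CLP, 66.7 and 79.4 CPM in GMP, and 58.9 and 53.8 CPM in CMP. In the mature populations they were 120 and 131 CPM in T, 79.9 and 73.0 in B, 69.8 and 74.1 in Erythroid and 60.2 and 68.4 in Myeloid. The libraries of T and MEP overlapped each other and lay above all others, and those of CMP lay below all others. T (0.71, edgeR adjusted p = 3.74e-05) and MEP (0.69, 0.000150) were higher than the other 7, and CMP (-0.61, 0.000454) and Myeloid (-0.39, 0.00891) were lower. Along its order the step from MEP to CLP (0.52, adjusted p = 0.0231) was the one that passed.

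**Figure D2:**
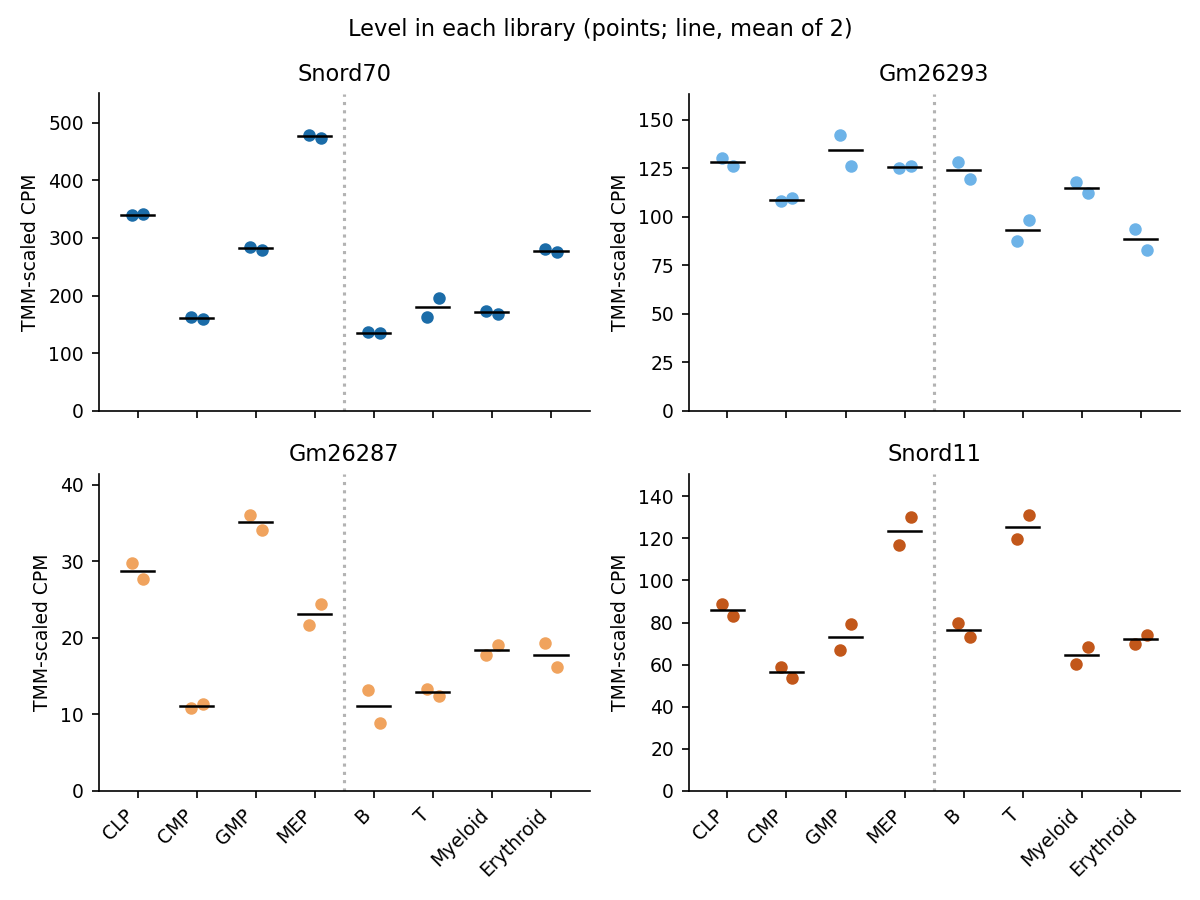
Level of each snoRNA in the 16 libraries, in TMM-scaled CPM on an axis that starts at 0, with 1 panel per snoRNA and a point per library. Snord70 peaks in MEP, Gm26287 in GMP and Snord11 in T and MEP, whereas Gm26293 moves within 83.1 to 142 CPM.

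The series set progenitors beside mature cells, and 3 of the 4 snoRNAs were higher in the mean of the 4 progenitor populations than in that of the 4 mature ones. Snord70 was higher by 0.67 on the log2 scale (standard error (SE) 0.041, edgeR adjusted p = 2.61e-07), Gm26287 by 0.62 (SE 0.089, 0.000151) and Gm26293 by 0.25 (SE 0.049, 0.00138). Snord11 did not pass the test (log2 difference -0.0052, 95% interval -0.14 to 0.13, adjusted p = 0.953). Of all tested intervals, 26.7% were higher and 23.1% lower. In the fit at a minimum mean of 10 CPM, 104 of 322 were higher and 114 lower. A count of 3 higher among 4 is above this background but rests on few members. The libraries of the stages overlapped for every snoRNA. Snord70 ran from 159 to 479 CPM with a median of 312 in the progenitors and from 135 to 280 with a median of 171 in the mature populations, and the CMP libraries lay inside the mature range. The 4 snoRNAs summed were higher in progenitors by 0.42 (SE 0.035, adjusted p = 2.17e-06), at a mean of 548 against 396 CPM.

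These tests take libraries as replicates. When each population entered as 1 sample, its libraries added together, the 4-against-4 differences were 0.66 for Snord70 (edgeR adjusted p = 0.216), 0.63 for Gm26287 (0.235), 0.17 for Gm26293 (0.701) and -0.11 for Snord11 (0.853). None of the 4 passed in that fit, and 0 of them had an unadjusted p under 0.05. DESeq2 called 3, but it took the 16 libraries as replicates, as the main fit did. Gm26293 was also lost without CLP library 1 (0.16, adjusted p = 0.120) or without T library 2 (0.18, 0.0747). With library totals in place of TMM, which moved the median of all intervals up by 0.24, Snord11 stood at 0.23 (adjusted p = 0.0104), about at that shift. Without GMP, MEP and Erythroid, the populations whose libraries stood apart, Snord70 (0.55, 5.44e-08), Gm26287 (0.37, 0.00779) and Gm26293 (0.11, 0.0475) stayed higher and Snord11 was lower (-0.29, 0.000655).

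In the lymphoid branch, Snord70 and Gm26287 were both more than 2 times as high in CLP as in the mean of B and T. The fold was 2.18 for Snord70 (log2 difference 1.12, SE 0.069, edgeR adjusted p = 3.34e-07) and 2.40 for Gm26287 (1.26, SE 0.15, 3.34e-05). Both CLP libraries lay above all 4 B and T libraries for these snoRNAs. The share of all intervals that separated in this way was not counted, here or in the branches below. For Gm26293 the difference was 0.26 (adjusted p = 0.0310), and the ranges of CLP and B overlapped. Snord11 did not pass (-0.19, 95% interval -0.42 to 0.044, adjusted p = 0.175), with CLP between B and T. Its value ran from -0.33 without CLP library 1 to -0.079 without CLP library 2 and passed in neither fit. So 3 of 4 were higher, where 25.2% of all intervals were higher (89 of 322 in the fit at a minimum mean of 10 CPM). The call of Gm26293 is not stable: it was lost without CLP library 1 (0.14, adjusted p = 0.546), CLP library 2 (0.34, 0.114), CMP library 1 (0.32, 0.0641), B library 1 (0.24, 0.134), B library 2 (0.30, 0.0952), T library 1 (0.32, 0.0758) or T library 2 (0.20, 0.261), and with DESeq2 (0.22, 0.174). With library totals, which moved the median of all intervals by 0.45, the difference of Snord11 turned to 0.26 (adjusted p = 0.0646).

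In the granulocyte-monocyte branch, Snord70 and Gm26287 were higher in GMP than in Myeloid, by 0.73 (SE 0.083, edgeR adjusted p = 0.000108) and 0.93 (SE 0.18, 0.00262). The libraries of the populations did not overlap for either. Gm26293 (0.22, 95% interval 0.0051 to 0.44, adjusted p = 0.114) and Snord11 (0.18, 95% interval -0.08 to 0.45, adjusted p = 0.279) did not pass. Of all tested intervals, 16.3% were higher in GMP (85 of 322 in the fit at a minimum mean of 10 CPM), against 2 of these 4. Without GMP library 2, Gm26293 was called as well (0.39, adjusted p = 0.0443). Snord11 ran from 0.14 without GMP library 2 to 0.30 without Myeloid library 2 and passed in neither fit.

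In the megakaryocyte-erythroid branch it was Snord70, Snord11 and Gm26293 that were higher in MEP than in Erythroid. Snord70 differed by 0.78 (SE 0.083, edgeR adjusted p = 0.000274), Snord11 by 0.78 (SE 0.12, 0.00227) and Gm26293 by 0.50 (SE 0.099, 0.00749). The MEP libraries lay above the Erythroid libraries for these 3, which with 2 libraries each is weak evidence alone. Gm26287 did not pass (0.38, 95% interval -0.012 to 0.77, adjusted p = 0.239), although its libraries did not overlap either, and its value ran from 0.23 without MEP library 2 to 0.53 without Erythroid library 1. Only 5.47% of all intervals were higher in MEP (49 of 322 in the fit at a minimum mean of 10 CPM), against 3 of these 4. These calls use a spread estimated over all 16 libraries. With the 4 libraries of MEP and Erythroid alone, none of the 4 passed (adjusted p = 0.0698 for Snord70, 0.117 for Snord11, 0.203 for Gm26293), 3 had an unadjusted p under 0.05, and edgeR called 0 of the 653 intervals tested in that fit, while DESeq2 on all libraries called 3 of the 4 snoRNAs. The call of Gm26293 was lost without any 1 of 10 libraries: CLP 1 (0.44, adjusted p = 0.112), CLP 2 (0.48, 0.0750), CMP 1 (0.47, 0.107), MEP 2 (0.44, 0.225), B 1 (0.43, 0.0581), B 2 (0.47, 0.0926), T 1 (0.47, 0.0911), T 2 (0.43, 0.0933), Myeloid 1 (0.47, 0.0999) and Erythroid 2 (0.41, 0.0505).

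**Figure D3:**
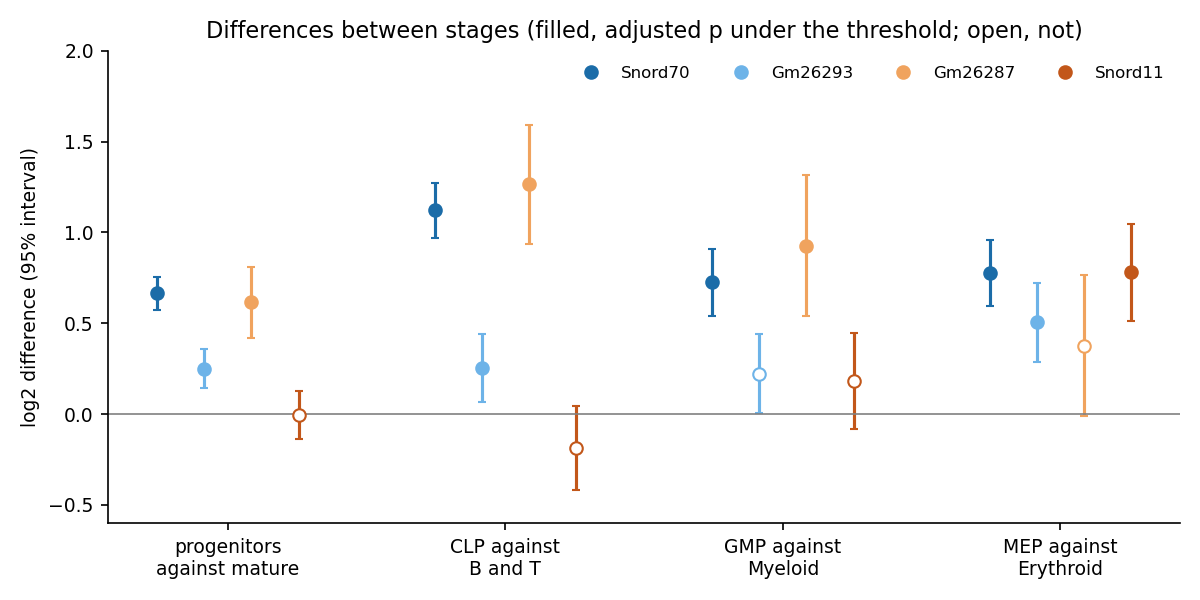
Log2 difference of each snoRNA in the 4 stage comparisons, with 95% intervals from the edgeR fit; filled points passed an adjusted p of 0.05 and the line at 0 marks no difference. Snord70 lies above 0 in all 4 comparisons, whereas Snord11 does so with a call only between MEP and Erythroid.

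Whether a stage difference itself differed between branches was tested for each snoRNA over 3 pairs of branches. Snord11 gave the clearest case: its progenitor-to-mature difference was 0.97 lower in the lymphoid than in the megakaryocyte-erythroid branch (log2 -0.97, SE 0.16, edgeR adjusted p = 0.00122), and this held without each library in turn (highest adjusted p = 0.0224), though not with no low-count filter (-0.86, 0.0576). Gm26287 went the other way (0.89, SE 0.23, adjusted p = 0.0180), but that call was lost without CLP 1 (0.81, adjusted p = 0.155), CLP 2 (1.02, 0.0597), MEP 1 (0.82, 0.0673), T 2 (0.83, 0.0917) or Erythroid 1 (0.81, 0.0917). The stage difference of Snord70 was larger in the lymphoid branch than in the granulocyte-monocyte (0.40, adjusted p = 0.0266) and megakaryocyte-erythroid branches (0.35, 0.0441), and each of these calls was lost in 10 of the 16 fits that left out 1 library and with DESeq2 (0.33, adjusted p = 0.159, and 0.34, adjusted p = 0.151). So 4 of 12 tests passed. Over all intervals, 17.9%, 21.4% and 9.21% passed for lymphoid against granulocyte-monocyte, lymphoid against megakaryocyte-erythroid and granulocyte-monocyte against megakaryocyte-erythroid. These shares include scarcer intervals and are not given at a minimum mean of 10 CPM.

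A ratio of counts between snoRNAs of the same library does not depend on how libraries are scaled, and it shows how unevenly the products of 1 host moved. Snord70 stood at 3.79 ± 0.0528 times the count of Gm26293 in MEP (mean ± SD, n = 2 libraries, as for all ratios and shares below). It stood at 3.15 ± 0.239 times in Erythroid, 2.66 ± 0.0666 in CLP, 2.11 ± 0.149 in GMP and 1.93 ± 0.0939 in T. The ratio was 1.48 ± 0.0177 in Myeloid, 1.48 ± 0.0321 in CMP and 1.10 ± 0.0443 in B. From B to MEP it moved by 1.79 on the log2 scale, whereas the largest difference between libraries of a population was 0.15. The ratio was high in the populations of the megakaryocyte-erythroid branch at both stages and near 1 in B.

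The ratio of Gm26287 to Snord11 moved by 2.23 on the log2 scale, with a largest difference between libraries of 0.44. It was highest in GMP (0.485 ± 0.0786), CLP (0.334 ± 0.000708) and Myeloid (0.287 ± 0.0111) and lowest in B (0.144 ± 0.0307) and T (0.103 ± 0.0125). Of the 6 ratios between the snoRNAs, none separated the progenitor from the mature populations in a two-sided exact permutation test over population means, 4 against 4, in which the smallest p possible is 0.0286. The exact p ranged from 0.0857 for Snord70 over Snord11 to 0.943, and the Benjamini-Hochberg adjusted values over the 6 from 0.514 to 0.943. With 4 populations a stage, a single ratio at the smallest possible p would not pass after adjustment over the 6, so the test cannot show that a ratio is free of stage. Snord70 over Snord11 was higher in progenitors by 0.67 on the log2 scale without passing.

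**Figure D4:**
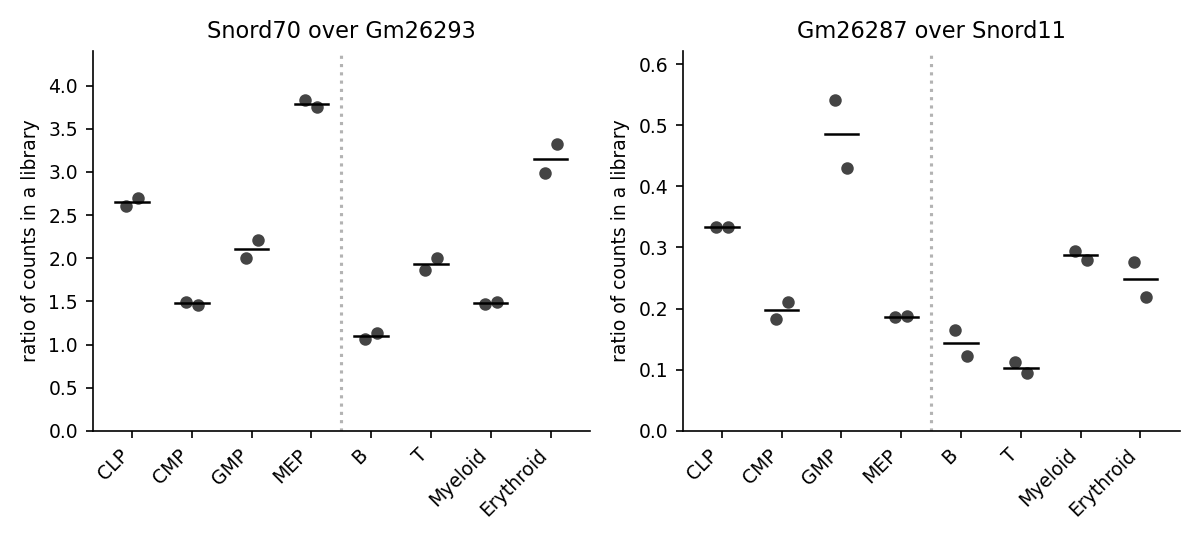
Ratio of counts within a library for Snord70 over Gm26293 and for Gm26287 over Snord11 in the 8 populations, on linear axes that start at 0, with a point per library and a bar at their mean. Snord70 over Gm26293 runs from 1.10 in B to 3.79 in MEP, and Gm26287 over Snord11 from 0.103 in T to 0.485 in GMP.

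As shares of the reads of all 4, Snord70 made up 39.1% ± 1.36 in B and 63.6% ± 1.21 in MEP, its lowest and highest values. The share of Gm26293 ran from 16.8% ± 0.0844 in MEP to 35.7% ± 0.203 in B, while its mean level was 126 CPM in MEP and 124 CPM in B. The shares add up to the whole, so a larger share of Snord70 leaves less for the others. Snord11 took 30.5% ± 0.843 in T and 13.9% ± 1.90 to 22.0% ± 0.419 in the other populations, and Gm26287 took 3.08% ± 0.222 in MEP to 6.69% ± 0.171 in GMP. The 4 snoRNAs together held 0.0588% ± 0.0158 of library counts in the progenitor populations and 0.0369% ± 0.00766 in the mature ones (SD, n = 4 populations each, two-sided exact permutation p = 0.0857). That difference did not pass the test. Their summed level was highest in MEP (749 ± 8.91 CPM) and lowest in CMP (337 ± 4.66 CPM).

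**Figure D5:**
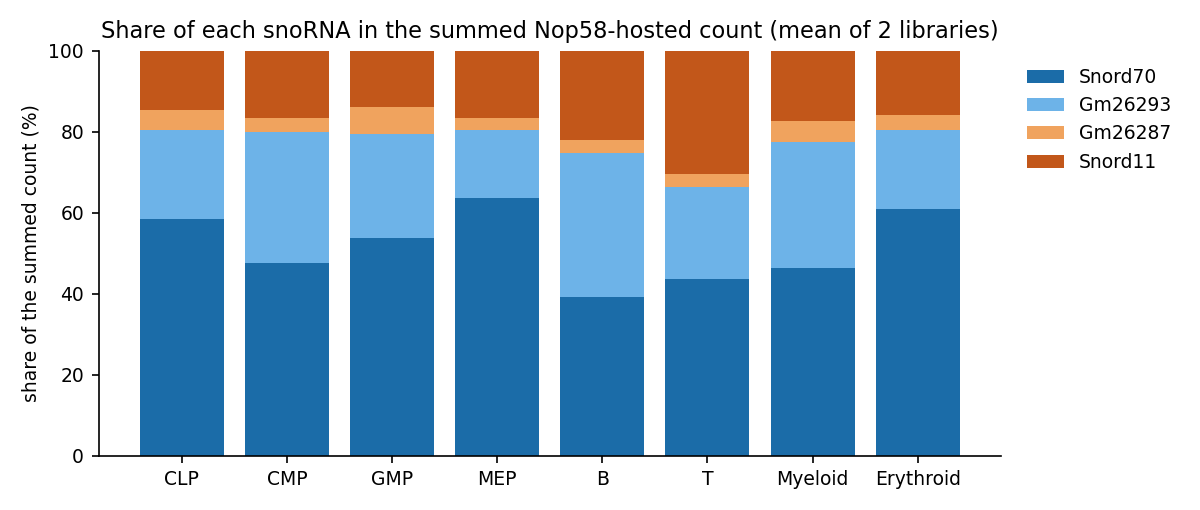
Share of each snoRNA in the summed count of the 4, in percent, as stacked bars from 0 for each population (mean of 2 libraries). Snord70 holds 63.6% in MEP and 39.1% in B, and Snord11 reaches 30.5% in T.

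Because the assignment of reads between similar intervals is not known here, Snord70 and Gm26293 were also summed to 1 feature, as were Gm26287 and Snord11, a choice made after the data had been seen. Snord70 with Gm26293 was higher in progenitors than in mature populations by 0.52 (edgeR adjusted p = 8.14e-07), in CLP than in B and T by 0.82 (1.72e-06), in GMP than in Myeloid by 0.54 (0.000485) and in MEP than in Erythroid by 0.71 (0.000298). Snord11 with Gm26287 was higher in GMP (0.39, 0.0195) and in MEP (0.71, 0.00216) than in their mature counterparts. It did not pass for progenitors against mature (0.11, 0.111) or for CLP against B and T (0.06, 0.637).

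snoRNAs in other genes for nucleolar proteins give the setting for these values. Of the core protein genes of the box C/D particle, Nop56 hosted 5 counted snoRNAs and no counted snoRNA lay in Fbl (fibrillarin) or Snu13. Between progenitors and mature populations, 2 of the 5 Nop56-hosted snoRNAs were higher and 1 lower, with a median log2 difference of 0.0079, against 3 higher, none lower and a median of 0.43 in Nop58. The higher ones were Gm23187 (0.85, edgeR adjusted p = 1.52e-07) and Gm23650 (0.44, 3.09e-06). The lower one was Snord57 (-0.61, 2.30e-09), while Snord110 stood at -0.027 (0.478). In Ncl (nucleolin) 1 of 3 was higher, Snord82 (0.30, 2.97e-06), and 1 lower, Gm24148 (-0.50, 2.56e-06). In Gnl3 (nucleostemin) 2 of 3 were higher, Gm24916 (0.82, 6.61e-08) and Snord19 (0.20, 0.000974), and Snord69 was lower (-0.64, 1.38e-07). Gm23187 and Gm24916 thus stood above the largest difference in Nop58, that of Snord70 (0.67). Of the 80 tested snoRNAs whose names begin with Snord, 21 were higher and 37 lower with a median of -0.14, and over all 749 intervals the median was 0.07. No difference between hosts was tested.

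In the branches the calls of the Nop56-hosted snoRNAs varied. In CLP against B and T, 2 were higher and 2 lower, in GMP against Myeloid 3 were higher and 1 lower, and in MEP against Erythroid 2 were higher, none lower and 3 not called, with median differences of -0.15, 0.18 and -0.021. The median differences of the Nop58-hosted snoRNAs in these comparisons were 0.69, 0.47 and 0.64, and those of all tested intervals 0.13, -0.0063 and 0.011.

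The intervals whose pattern over the 8 population means was most like that of each Nop58-hosted snoRNA were taken from 316 candidates of at least 10 CPM, with Pearson's r of log2 CPM as the measure and as a description only, since all points share the same libraries. For Snord70 they were Gm22357, a snoRNA in Gas5 (r = 0.925), the interval shared by Mir451a and Mir451b (0.906) and Snord14e in Hspa8 (0.897). For Gm26293 they were Snord65 (0.804), Snora3 in Rpl27a (0.791) and Rnu73b in Rps3a1 (0.771). For Gm26287 they were Gm25878 in Zfas1 (0.927) and the snRNA intervals Gm22042 (0.909) and Gm25106 (0.906). For Snord11 they were Snord83b in Rpl3 (0.881), Gm24463 (0.811) and Snord50a in Snhg5 (0.738). No interval was among the nearest of more than 1 of the 4. Among themselves, Snord70 and Gm26287 were the most alike (r = 0.763, n = 8 populations), Snord70 and Gm26293 had r = 0.262, and Gm26287 and Snord11 had r = 0.134, so the members alike in sequence were not the ones alike in pattern.

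The erythroid marker miRNAs and Snord70 were high in the same 4 populations. The fixed erythroid markers Mir451a and Mir144, miRNAs made from 1 precursor transcript in erythroid cells, were both listed with reads in all 8 populations, and neither was at 0 in any. Their summed level was 126 to 196 CPM in the MEP libraries, 137 to 148 in CLP, 110 to 184 in Erythroid and 69.9 to 129 in GMP. It was 52.7 to 56.5 CPM in Myeloid, 42.6 to 45.1 in CMP, 24.5 to 28.9 in T and 10.1 to 10.2 in B. The ranges of MEP, CLP and GMP overlapped that of Erythroid, so these markers did not set Erythroid apart. The 4 populations with the highest sums were the 4 in which Snord70 was higher than the other 7. In MEP the markers differed between libraries as given, in CPM of library totals, while Snord70 stood at 479 and 474 TMM-scaled CPM. All miRNAs together also differed there, at 2.17% of counts in library 1 and 1.33% in library 2. The part of red cells or their RNA in the level of Snord70 was not tested.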

How the data were processed

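Small RNA libraries of 8 sorted mouse bone marrow populations, 2 each, were compared. The authors deposited raw read counts per annotated small RNA interval. Per the submitters' processing notes, Trimmomatic 0.38, Bowtie2 2.3.4.1 and GRCm38 were used, and per the labels' protocols the libraries were cut from a gel at 170 to 370 bp. The counting program, annotation, use of strand and treatment of reads with several matches are not given in the sources used here. Between 89.0% and 93.2% of the values of a library were even, so both mates of a pair seem to be counted, and intervals that a file does not list were set to 0.

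Intervals were matched by position to GENCODE M21, for 1884 of 1885. Tests used edgeR 4.0.16 (R 4.3.3): filterByExpr at a minimum count of 10 (749 intervals left), TMM scaling, a quasi-likelihood model of 16 libraries with a mean for each population (8 residual degrees of freedom) and Benjamini-Hochberg adjustment over the 749, at 0.05. Standard errors were taken from the log2 difference and its F value. The script was tested on simulated data. Ratios used log2 of counts plus 0.5 and exact permutation tests in SciPy 1.17.1. Similar sequences were found with blastn 2.17.0. Every Nop58-hosted snoRNA is named, and for each the 3 most similar patterns. Also named are the snoRNAs of Nop56, Ncl and Gnl3 that are Snord-named or called between stages, and markers that set a limit. Marker lists were lymphocyte, myeloid, erythroid and stem and progenitor miRNAs. Alternatives were other scaling, filters, DESeq2 1.42.0, a replicate block, halved counts, snoRNAs alone, fewer populations and leaving out each library. The members and lists were chosen with earlier results of these data known.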

Additional observations from a re-analysis of the deposited data

Results flagged for a closer look

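In 4 tests the difference between progenitor and mature cells itself differed between branches (edgeR quasi-likelihood test of the difference of the log2 differences, adjusted over 749 intervals). For Snord11 the lymphoid minus the megakaryocyte-erythroid value was -0.97 (adjusted p = 0.00122): CLP stood at -0.19 against B and T, and MEP at 0.78 against Erythroid. For Gm26287 it was 0.89 (adjusted p = 0.0180), from 1.26 and 0.38. For Snord70 the lymphoid value exceeded the megakaryocyte-erythroid one by 0.35 (adjusted p = 0.0441) and the granulocyte-monocyte one by 0.40 (adjusted p = 0.0266), from 1.12, 0.78 and 0.73. The Snord70 calls are the least firm, with an adjusted p up to 0.296 and 0.304 when 1 library was left out.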

How the results depend on the processing

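Leaving out 1 library gave ranges of 0.16 to 0.31 (progenitors against mature), 0.14 to 0.34 (CLP against B and T), 0.10 to 0.39 (GMP against Myeloid) and 0.41 to 0.62 (MEP against Erythroid) for Gm26293. For Snord11 in progenitors against mature the range was -0.11 to 0.029 (edgeR adjusted p 0.299 to 0.969). The difference between progenitors and mature populations in the log2 ratio of Snord70 to Gm26287 ran from -0.024 to 0.11. Among the branch differences there were 1 to 4 calls. With populations as units the progenitor difference was 0.66 (Snord70), 0.17 (Gm26293), 0.63 (Gm26287) and 0.39 (sum, adjusted p = 0.373), with 0 snoRNAs called. With the populations compared alone, MEP against Erythroid gave 0.81 for Snord70, 0.54 for Gm26293, 0.81 for Snord11 and 0.75 for the sum (adjusted p = 0.0630), and 0 calls. The fits with fewer samples have fewer residual degrees of freedom. With RLE scaling Gm26293 was not called in CLP against B and T (0.22) or MEP against Erythroid (0.48). With no low-count filter it was not called in progenitors against mature (0.27), CLP against B and T (0.35) or MEP against Erythroid (0.49), and at a minimum mean of 10 CPM (0.18) or by DESeq2 (0.22) not in CLP against B and T. Snord11 changed sign in progenitors against mature with library totals (0.23) and with no filter (0.0086), and in CLP against B and T with library totals (0.26). It was called at -0.29 in CLP and CMP against B, T and Myeloid, and at -0.26 in CLP against B and T at that minimum. The 4 called branch differences became 2 with RLE scaling, 8 with library totals, 7 at the minimum of 10 CPM and 0 with no filter (2 with an unadjusted p under 0.05). DESeq2 with the filter called 3: those of Snord11 and Gm26287 between the lymphoid and megakaryocyte-erythroid branches, and Snord11 between the granulocyte-monocyte and megakaryocyte-erythroid branches (-0.56, adjusted p = 0.0299), which edgeR did not call, but neither of Snord70's. The 69 called pairs became 42 with no filter. Library totals made 309 intervals higher and 107 lower in progenitors, in place of 200 and 173. The cause of these changes was not tested. Snord70 and Gm26287 in progenitors against mature, CLP against B and T and GMP against Myeloid kept their direction in every alternative run and passed in all except populations as units.

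Whether replicate numbers pair the samples is not known. Over 28 pairs of populations the correlation of library deviations ran from -0.908 to 0.823, with a median of 0.21 and 18 over 0.1. These values cannot decide it, since the labels do not tie the libraries to animals or batches. With the replicate number as a block, Snord70 in progenitors against mature stood at 0.67 (adjusted p = 1.04e-06), and among the stage and branch comparisons 1 call was lost, that of Snord70 between the lymphoid and megakaryocyte-erythroid branches (0.35, adjusted p = 0.0547). At the lowest depth, that of CMP library 1, Gm26287 rests on 104 reads, which sets the precision of its values and ratios.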
